A study of Mus musculus with 18 samples.

Results

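The genes of cholesterol and fatty acid synthesis were examined in the retinal pigment epithelium (RPE) of *rd1* mice that overexpressed Nrf2 in 1 eye. They were 36 genes, chosen by name, of the 47729 in the count table: 6 regulators, 17 enzymes of the sterol arm and 13 enzymes of the fatty acid arm. All 36 were found in the table, and all 36 passed the filter on low counts.

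Cells make cholesterol from acetyl-CoA through mevalonate, squalene and a series of sterols, and they make fatty acids from the same acetyl-CoA, which are then desaturated and elongated. Both arms are under transcription factors of the SREBP family, which are held in the endoplasmic reticulum by SCAP and the INSIG proteins when sterols are plentiful. The RPE takes up much lipid from the outer segments that photoreceptors shed, and the photoreceptors in turn need long polyunsaturated fatty acids for their membranes.

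The mice were *rd1* animals of the FVB/N strain at P40, which lack *Pde6b* function and lose their rods early. In each of 9 mice, 1 eye had received AAV-Best1-Nrf2, with the human cDNA, together with AAV-Best1-GFP. Its fellow was given AAV-Best1-GFP and nothing else, and the groups are named Best1-Nrf2 and control after their vectors. The human Best1 promoter is active in the RPE only. The treated eyes thus carried an additional vector, and its effect as a vector cannot be told apart from that of Nrf2. RNA was taken from the eyecup after the retina had been removed, poly(A) RNA was amplified, and libraries were sequenced in separate runs that are not given per library. The labels place 9 pairs at this age, which is more than the study's methods state for it. Control eyes served as the background for every value.

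Libraries held 18956748 to 49598700 counts. *Nfe2l2*, the mouse counterpart of the delivered cDNA, ranged from 76.7 to 134 CPM (counts scaled to a common library total) in control eyes and from 275 to 704 CPM in Best1-Nrf2 eyes, with no overlap (log2 fold change, in short log2 change, 2.29, SE 0.21, adjusted p = 6.21e-05, edgeR). Of 13 Nrf2 target genes, 12 were higher. RPE markers were abundant in every library, with summed levels from 14082 to 80097 CPM, but 5 of 18 were lower with Best1-Nrf2, and the control eye of mouse 8 had the lowest RPE score (mean log2 CPM, 7.56, against 8.87 or more in the other control eyes). Of 11 cone markers, 10 were lower (median log2 fold change, -3.25), as were 5 of 11 rod markers tested, while 1 rod marker was higher. The combined rod and cone score was lower in the Best1-Nrf2 eye of 8 mice and 0.25 higher in that of mouse 6. This eye also had the highest inner retina neuron score (6.22, against 2.35 in its fellow and 0.502 to 5.08 in the other Best1-Nrf2 eyes). Of 15 macrophage and microglia markers, 9 were higher (median, 1.66). In bulk RNA, fewer cells of a type cannot be told apart from less RNA per cell.

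The sequences just upstream of 3 members are shown because these genes carry the contrast described below: *Hmgcs1*, a mevalonate enzyme that showed no change past the threshold, and *Elovl1* and *Elovl2*, both of which fell. They are from RefSeq on GRCm38.p6, written 5′ to 3′ on the gene's strand and ending before the first exon, at chr13:119690101-119690350 (plus strand), chr4:118427843-118428092 (plus strand) and chr13:41220406-41220653 (minus strand). Capitals mark matches on either strand to TCACNCCAC (a sterol response element), CCAAT (the NF-Y box) or GGGCGG (the Sp1 GC box).
Hmgcs1: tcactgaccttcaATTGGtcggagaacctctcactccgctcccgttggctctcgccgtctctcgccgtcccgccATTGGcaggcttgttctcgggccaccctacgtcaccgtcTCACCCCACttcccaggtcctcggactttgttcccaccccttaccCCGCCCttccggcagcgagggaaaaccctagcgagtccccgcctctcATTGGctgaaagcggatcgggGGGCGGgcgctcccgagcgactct
Elovl1: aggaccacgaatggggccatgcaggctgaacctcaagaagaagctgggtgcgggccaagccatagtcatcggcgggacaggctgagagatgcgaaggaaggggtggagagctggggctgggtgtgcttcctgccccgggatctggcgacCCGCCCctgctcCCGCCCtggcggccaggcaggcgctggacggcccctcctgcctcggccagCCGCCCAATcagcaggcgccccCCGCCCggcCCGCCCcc
Elovl2: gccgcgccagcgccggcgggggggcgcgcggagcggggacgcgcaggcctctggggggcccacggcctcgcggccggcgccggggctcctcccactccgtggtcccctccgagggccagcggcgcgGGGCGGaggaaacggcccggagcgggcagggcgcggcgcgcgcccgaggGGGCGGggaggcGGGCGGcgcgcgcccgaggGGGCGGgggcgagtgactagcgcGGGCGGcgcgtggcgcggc

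In the *Hmgcs1* window, the sterol response element began 137 bases before the start, among 3 CCAAT boxes and 2 GC boxes. In the *Elovl1* window, 1 CCAAT box overlapped a GC box by 2 bases, and the *Elovl2* window held 5 GC boxes and neither of the other motifs. Windows of 250 bases were found and searched for 30 of the 36 members, and that of *Elovl2* is printed with 248 bases because 2 lie in an exon. *Scd1*, *Scd2*, *Fads1*, *Sqle*, *Fdft1* and *Fdps* were not analysed for motifs here. The sterol response element was found in the windows of *Hmgcs1* and *Mlxipl*, and in 1.05% of all 32851 windows of the genome. A CCAAT box was found for 13 of 14 sterol arm, 5 of 6 regulator and 4 of 10 fatty acid arm genes, and in 33.8% of all windows. A GC box was found for 13 of 14 sterol arm, 6 of 6 regulator and 5 of 10 fatty acid arm genes, and in 32.7% of all windows (42.6% of those of protein-coding genes). The core of the antioxidant response element, TGACNNNGC, to which Nrf2 binds, was found in the windows of *Pmvk*, *Mvk* and *Dhcr7*, and in 10.2% of all windows. A member was counted if any of its windows matched, and *Elovl1*, for example, had more than 1 window. The shares of all windows count single windows, so they are a lower bar than the counts of genes. These matches describe the letters in the window and do not show binding.

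Levels in control eyes were compared per kilobase (kb) of exon. The order was led by the elongase *Elovl1*, with a median of 100.4 CPM per kb (range, 76.4 to 138), and the desaturase *Scd2*, with 61.1 CPM per kb (highest eye, 148), whose ranges overlapped. Next were the SCAP anchor *Insig1* (51.0), the desaturase *Fads1* (50.2), and the sterol enzymes *Fdps* (47.8) and *Fdft1* (45.0), which did not differ beyond the spread between eyes. The lowest medians were those of *Scd1* (2.53), the acetyl-CoA carboxylases *Acaca* (1.00) and *Acacb* (0.688), and *Mlxipl* (0.558), which encodes the carbohydrate-responsive factor ChREBP. Thus, of the stearoyl-CoA desaturases among the 36, *Scd2* was the abundant one and *Scd1* was near the bottom of the order. *Scd3* and *Scd4*, outside the 36, were lower still (0.209 and 0.183 CPM per kb). The lowest *Scd2* value lay above the highest *Scd1* value (4.03 CPM per kb).

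**Figure D1:**
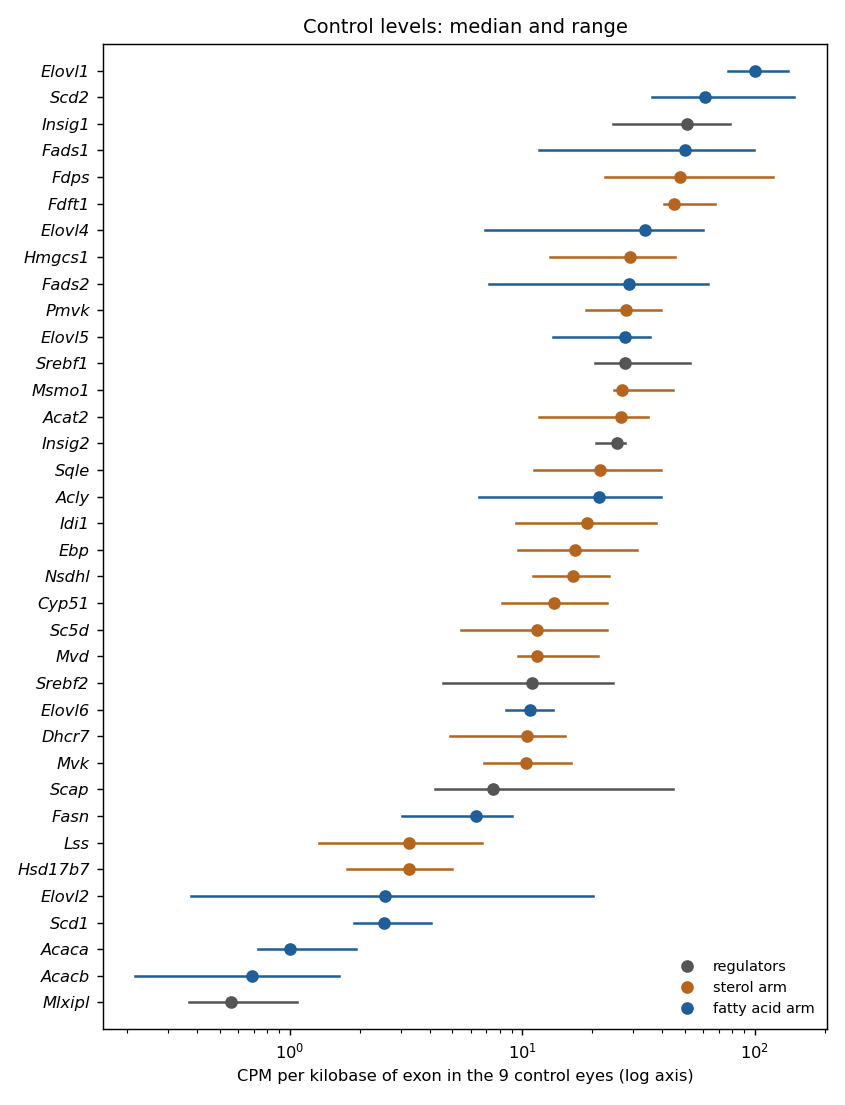
Levels of the 36 genes in control eyes, as CPM per kb of exon on a log axis; points are medians and lines the range over 9 eyes. *Elovl1* had the highest median (100.4) and *Mlxipl* the lowest (0.558), and fatty acid arm genes stood at both ends of the order.

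Between the eyes, 3 of the 36 genes passed the threshold (adjusted p under 0.05, paired edgeR model over all genes), and all 3 were in the fatty acid arm. *Scd1* rose, and *Elovl1* and *Elovl2* fell. Among all 18958 genes tested, 4.25% were called (3.12% higher and 1.13% lower). None of the 6 regulators and none of the 17 sterol arm genes passed. At an unadjusted p under 0.05 there were 7 members, 2 higher and 5 lower, against 12.8% of all genes. The median log2 fold change was -0.08 over the 36 genes and -0.03 over all genes tested. Below 0 were 27 of the 36 genes and 10047 of the 18958 genes tested.

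The groups overlapped for every one of the 36 genes, whereas they were apart for 1.17% of all genes. *Scd1* and *Elovl2* kept 1 direction over all 9 mice, as did 4.34% of all genes. For 27 of the 33 genes that were not called, the 95% interval of the change lay within 1 log2 unit of 0. The half-widths of these 33 intervals ran from 0.25 to 0.80 log2 units.

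**Figure D2:**
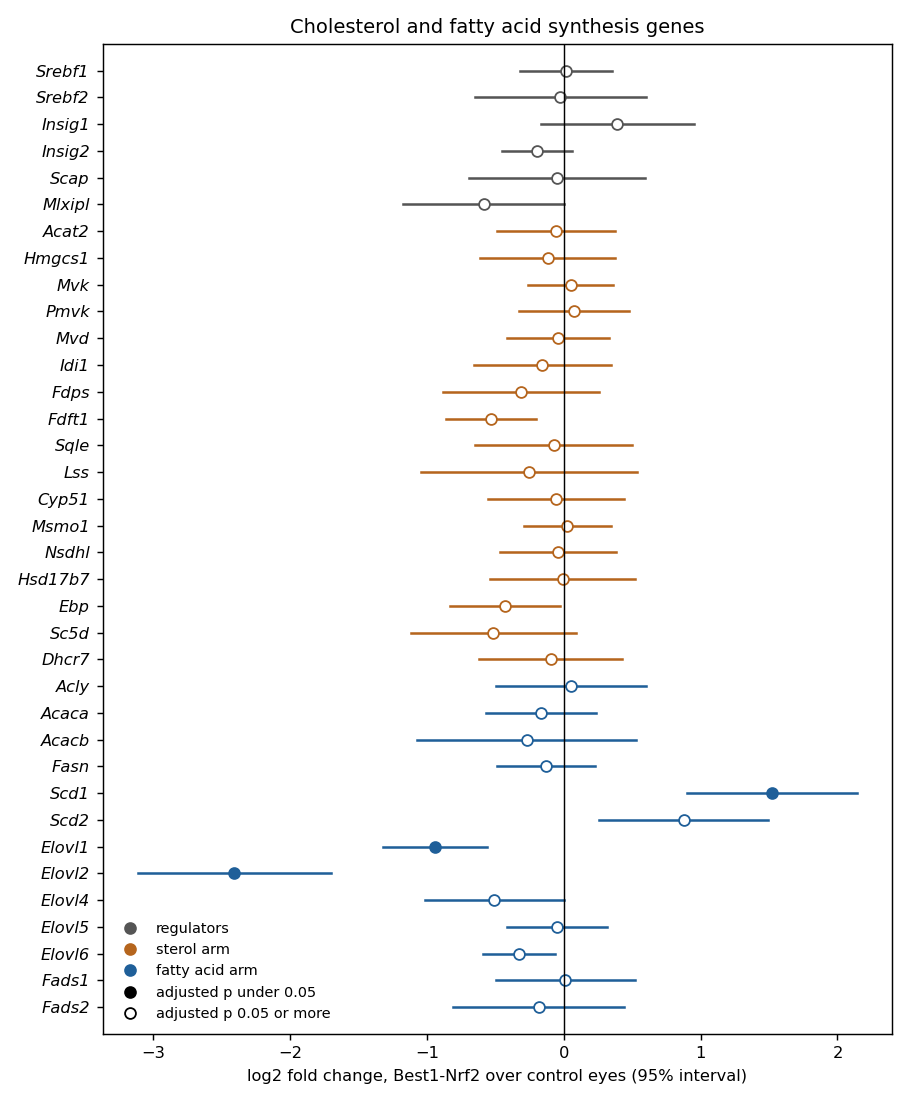
Log2 fold changes of Best1-Nrf2 over control eyes for the 36 genes, with 95% intervals (paired edgeR model, 9 mice); filled points passed an adjusted p of 0.05. The sterol arm lies between -0.53 and 0.07, and the fatty acid arm between -2.41 (*Elovl2*) and 1.52 (*Scd1*).

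Of the regulators, the SREBP genes were nearly level between the groups. *Srebf1*, whose products drive both fatty acid and sterol genes, ranged from 116 to 296 CPM in control eyes (median, 155) and from 105 to 394 CPM in Best1-Nrf2 eyes (median, 140.2). Its log2 fold change was 0.02 (SE 0.15, adjusted p = 0.984). *Srebf2*, the main factor of sterol genes, ranged from 32.7 to 176 CPM (median, 78.6) and from 35.4 to 154 CPM (median, 66.0), with a log2 change of -0.03 (SE 0.29, adjusted p = 0.988). Both ranges overlapped almost fully. With the rod and cone score as a covariate, the log2 changes were -0.23 for *Srebf1* (adjusted p = 0.775) and -1.39 for *Srebf2* (adjusted p = 0.201), and the median of the 6 regulators was -0.95 in place of -0.04. Such a fit estimates the change at equal scores in both eyes. Only mouse 6 was close to that (0.25, against -1.80 to -4.52 in the other 8 mice). All values given with this covariate therefore rest mainly on mouse 6.

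*Insig1*, which retains SCAP in the endoplasmic reticulum and is itself an SREBP target, ranged from 75.8 to 241 CPM in control eyes (median, 158) and from 86.9 to 321 CPM in Best1-Nrf2 eyes (median, 240.4). It was higher in 8 of 9 mice, by only 0.0055 log2 units in mouse 8, and lower in mouse 6, and did not pass (log2 fold change, 0.39, 95% interval, -0.17 to 0.95, adjusted p = 0.623). Its direction turned with the rod and cone score as a covariate (-0.92, adjusted p = 0.296). *Insig2*, the other anchor, and *Scap*, the escort of SREBP, had log2 fold changes of -0.20 and -0.05. The *Scap* difference varied widely between mice, from 2.31 in mouse 2 to -1.12 in mouse 6. *Mlxipl* was low, with 2.03 to 5.94 CPM in control eyes and 0.906 to 4.60 CPM in Best1-Nrf2 eyes, and was lower in 8 of 9 mice (log2 fold change, -0.59, adjusted p = 0.394).

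The sterol arm had a median log2 change of -0.07, with 3 genes above 0 and 14 below, and adjusted p values from 0.0820 to 0.995. Of all 18958 genes tested, 10047 were below 0. With the rod and cone score as a covariate, the arm median was -0.84, with *Hmgcs1* at -0.96 (adjusted p = 0.297) and *Sqle* at -1.22 (adjusted p = 0.248), and none of its genes passed. These values rest mainly on mouse 6, in which the mean log2 difference of the arm was -0.96. For 15 of its 17 genes the 95% interval lay within 1 log2 unit of 0. The early mevalonate steps stayed close to 0, with *Acat2* (acetoacetyl-CoA thiolase) at -0.06, *Mvk* (mevalonate kinase) at 0.05, *Pmvk* (phosphomevalonate kinase) at 0.07 and *Mvd* (the decarboxylase) at -0.04. *Hmgcs1*, the HMG-CoA synthase that precedes the reductase, ranged from 60.4 to 208 CPM in control eyes (median, 133) and from 67.9 to 174 CPM in Best1-Nrf2 eyes (median, 116). The groups overlapped, and the log2 fold change was -0.12 (SE 0.23, adjusted p = 0.921). *Idi1*, the isopentenyl diphosphate isomerase, was at -0.16.

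The largest difference of the arm was that of *Fdft1*, the squalene synthase, which commits farnesyl units to sterols (GRCm38 chromosome 14, 63145150 to 63179578). It ranged from 172 to 284 CPM in control eyes (median, 190.1) and from 114 to 192 CPM in Best1-Nrf2 eyes (median, 128). Only the Best1-Nrf2 eye of mouse 8, with 192 CPM, reached into the control range. The log2 change of -0.53 (SE 0.15, 95% interval, -0.86 to -0.20) did not pass (adjusted p = 0.0820), although the gene was lower in 8 of 9 mice. Without mouse 8 it passed (adjusted p = 0.0442), as it did without mice 6 and 8 (0.0389), without the replicate block (0.0419), in DESeq2 (0.0137) and in limma voom (0.00965). With the rod and cone score as a covariate its log2 change was -0.25 (adjusted p = 0.754), and with the RPE score it was -0.33 (adjusted p = 0.466). Of its 31-base words, 31.9% occur in other annotated genes, so part of its count is uncertain. The share was 43.7% for *Acat2*, 33.5% for *Acaca*, 27.9% for *Fdps* and 27.1% for *Idi1*, whose counts are uncertain in the same way, and 13.1% or less for each of the other members.

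*Fdps*, which makes the farnesyl diphosphate that *Fdft1* uses, had a like-signed but uncertain difference. It ranged from 95.5 to 502 CPM in control eyes and from 87.3 to 390.4 CPM in Best1-Nrf2 eyes (log2 fold change, -0.31, SE 0.26, adjusted p = 0.734, lower in 5 of 9 mice). *Sqle*, the squalene epoxidase, ranged from 61.9 to 219.9 CPM (median, 120.1) and from 43.0 to 171 CPM (median, 134), with a log2 change of -0.07 (SE 0.26, adjusted p = 0.961). *Lss*, which closes the sterol rings, was at -0.25. The demethylation enzymes *Cyp51*, *Msmo1*, *Nsdhl* and *Hsd17b7* had log2 fold changes of -0.06, 0.02, -0.04 and -0.01.

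Of the late steps, *Ebp*, the sterol isomerase, ranged from 22.2 to 71.8 CPM in control eyes and from 18.2 to 91.3 CPM in Best1-Nrf2 eyes (log2 fold change, -0.43, SE 0.18, adjusted p = 0.335, lower in 7 of 9 mice). *Sc5d*, the sterol desaturase, ranged from 26.4 to 113 CPM (median, 56.2) and from 16.4 to 121 CPM (median, 29.0), with a log2 change of -0.51 (SE 0.28, adjusted p = 0.498) and 5 of 9 mice lower. *Dhcr7*, the dehydrocholesterol reductase, was at -0.10. For *Fdps*, *Ebp* and *Sc5d*, both eyes of mouse 8 were the highest of their groups.

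Most sterol genes shared a direction within 7 of the 9 mice, but the direction differed between mice. In mice 1, 5 and 9, 14, 14 and 15 of the 17 genes were higher in the Best1-Nrf2 eye. In mice 2, 4, 6 and 7, the number was 3, 2, 1 and 1. In mice 3 and 8 it was 9 and 10, close to an even split. Of all genes tested, 44.8% to 52.5% were higher in the Best1-Nrf2 eye of a given mouse. In mouse 6, 0 of 6 regulators and 2 of 13 fatty acid arm genes were higher as well. The mean log2 difference over the arm ranged from -0.96 in mouse 6 to 0.63 in mouse 5, with a mean of -0.15 ± 0.50 (SD, n = 9), so the spread between mice exceeded the mean.

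**Figure D3:**
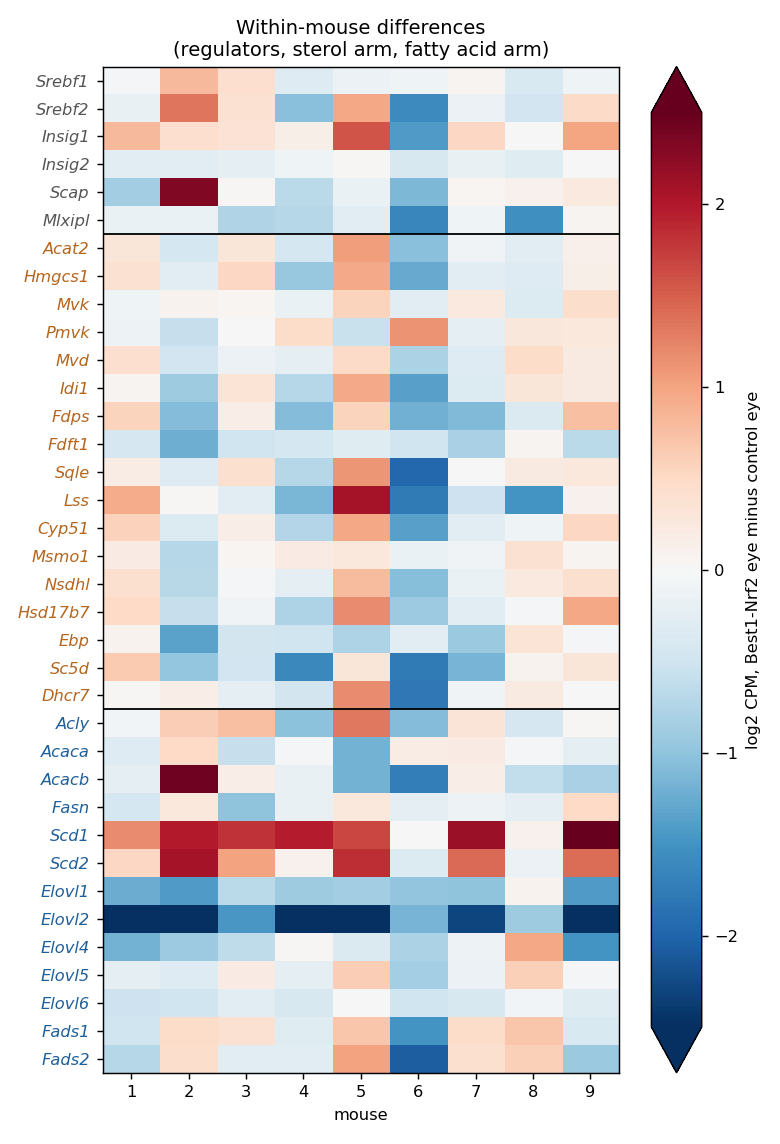
Log2 CPM of the Best1-Nrf2 eye minus that of the control eye for each gene (lines of the map, with name colours for regulators, sterol arm and fatty acid arm) and mouse (columns). Sterol genes share a sign within most mice, higher in mice 1, 5 and 9 and lower in mice 2, 4, 6 and 7, while *Scd1* and *Elovl2* keep 1 sign across the mice.

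The eyes with the lowest sterol scores were among those with the most red blood cell transcripts. The summed level of 6 red blood cell genes was 2973 and 3175 CPM in the control eyes of mice 3 and 5 and 5347 and 3646 CPM in the Best1-Nrf2 eyes of mice 3 and 6, and 1761 CPM or less in the other 14 eyes. In each group these were the 2 eyes with the lowest sterol score (mean log2 CPM, 5.31 and 5.58 in control eyes and 5.30 and 5.10 in Best1-Nrf2 eyes). The same eyes had the highest summed RPE markers, with 70152 and 54402 CPM in control mice 3 and 5 (45405 CPM or less in the other control eyes) and 80097 and 54023 CPM in Best1-Nrf2 eyes 3 and 6 (27272 CPM or less in the others). Their RPE scores, as mean log2 CPM, did not stand out in the same way, with 9.14 and 9.03 in these control eyes (up to 9.56 in the others) and 8.98 and 8.28 in these Best1-Nrf2 eyes (7.87 to 8.75 in the others). These Best1-Nrf2 eyes were also the highest of their group in the scores of Muller glia (7.62 and 7.51), fibroblasts and sclera (4.90 and 5.33) and myelinating cells (2.94 and 3.29), and the lowest in that of Nrf2 targets (8.71 or less, against 9.01 or more in the others). Control eyes 3 and 5 were likewise the lowest of their group in Nrf2 targets (5.91 and 6.33, against 6.41 or more in the others). The part of these measures in the sterol scores was not tested. None of the 5 red blood cell genes tested differed between the groups (adjusted p from 0.757 to 0.865, median log2 fold change, 0.47). With the red blood cell score as a covariate, the sterol arm median was 0.06 in place of -0.07, and none of its genes passed.

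**Figure D4:**
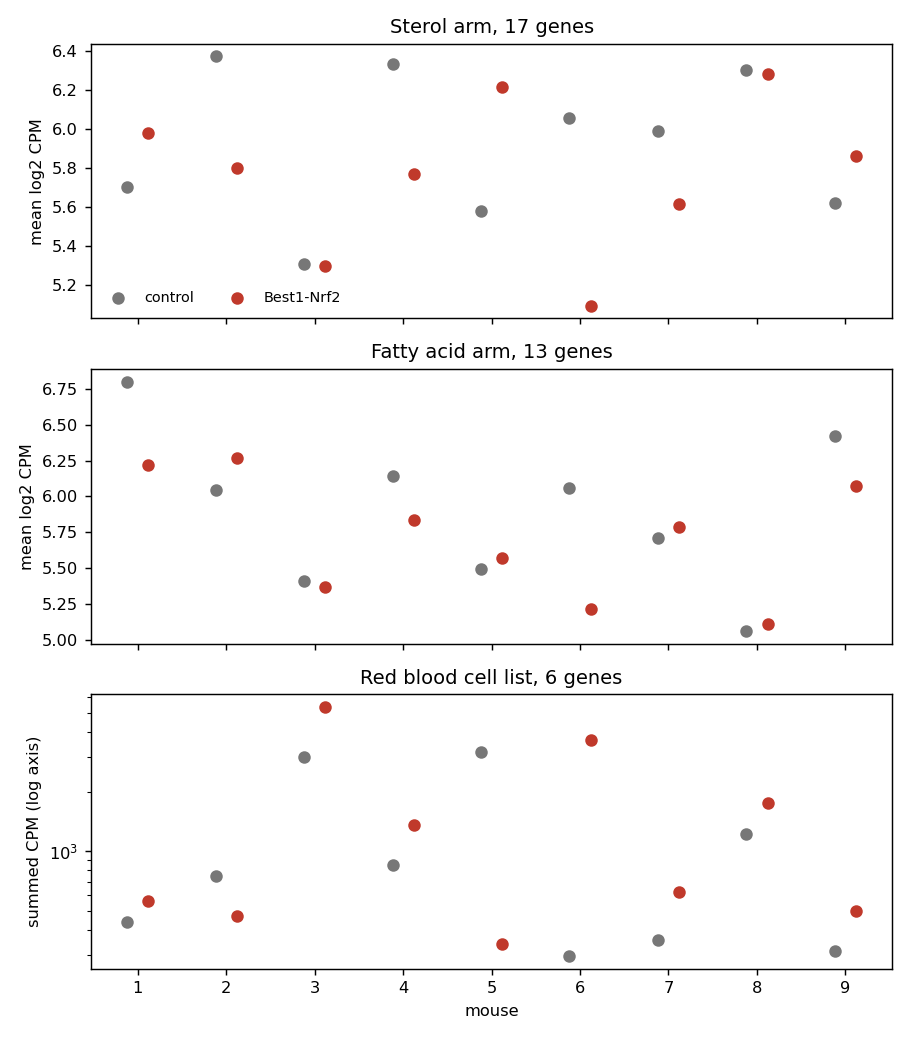
Mean log2 CPM of the sterol and fatty acid arms and summed CPM of the red blood cell list (log axis) in each eye of the 9 mice. The sterol score is lowest in the Best1-Nrf2 eye of mouse 6 (5.10) and in both eyes of mouse 3 (5.31 and 5.30), which are among the 4 eyes with the most red blood cell transcripts (2973 CPM or more).

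In the fatty acid arm, *Acly*, *Acaca*, *Acacb* and *Fasn* showed no change past the threshold. *Acly*, which makes cytosolic acetyl-CoA from citrate, ranged from 34.5 to 208 CPM in control eyes (median, 113) and from 57.2 to 199 CPM in Best1-Nrf2 eyes (median, 95.1), with a log2 change of 0.05 (SE 0.25, adjusted p = 0.972). Its sign turned without the replicate block (-0.04) and with the rod and cone (-0.82) or the RPE score (-0.17) as a covariate. It also depended on the mice kept, with log2 changes from -0.10 to 0.19 when single mice were left out. *Fasn*, the fatty acid synthase, ranged from 33.2 to 98.6 CPM (median, 68.8) and from 16.6 to 94.7 CPM (median, 63.4), with a log2 change of -0.13 (SE 0.16, 95% interval, -0.49 to 0.23, adjusted p = 0.855). Both pairs of ranges overlapped. *Acaca* and *Acacb*, which make malonyl-CoA, were at -0.17 and -0.27.

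Of the stearoyl-CoA desaturases, which place the first double bond, *Scd1* rose and *Scd2* did not pass. *Scd1* (ENSMUSG00000037071, chromosome 19, 44394455 to 44407879) ranged from 9.19 to 19.7 CPM in control eyes (median, 12.4) and from 13.4 to 59.3 CPM in Best1-Nrf2 eyes (median, 38.4). In 7 Best1-Nrf2 eyes it was 35.8 CPM or more, above every control eye, and in those of mice 6 and 8 it was 19.9 and 13.4 CPM, beside or within the control range. The log2 fold change was 1.52 (SE 0.28, 95% interval, 0.90 to 2.14, adjusted p = 0.00815), a 2.87-fold rise, and the gene was higher in 9 of 9 mice, though by only 0.01 and 0.11 log2 units in mice 6 and 8. This call, like those of *Elovl1* and *Elovl2*, was lost with the rod and cone or the RPE score as a covariate (values below).

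*Scd2*, the desaturase with the higher level, ranged from 197 to 809 CPM in control eyes (median, 334) and from 289 to 1414 CPM in Best1-Nrf2 eyes (median, 686). It was higher in 7 of 9 mice and lower in mice 6 and 8. Its log2 change of 0.88 (SE 0.28, 95% interval, 0.26 to 1.49) did not pass (adjusted p = 0.143). It passed without mouse 6 (adjusted p = 0.0496), without mice 6 and 8 (0.0184), with the red blood cell covariate (0.0377), in DESeq2 (0.0239) and in limma voom (0.00887). With the rod and cone score as a covariate its log2 change was -0.36 (adjusted p = 0.754), and with the RPE score it was 0.43 (adjusted p = 0.592). *Scd1* and *Scd2* lie near each other on chromosome 19, with *Scd4* between them, and 8.18% and 6.81% of their 31-base words occur in other genes. The *Nfe2l2* level was lowest in the Best1-Nrf2 eyes of mice 6 (275 CPM) and 8 (294 CPM), the mice in which *Scd1* was least raised and *Scd2* was lower. It was 312 CPM in mouse 1, where *Scd1* and *Scd2* were higher by 1.18 and 0.51 log2 units. In mice 6 and 8 the rod and cone score also differed least downward (0.25 and -1.80), and the part of either measure was not tested.

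The elongases, which lengthen fatty acids in the endoplasmic reticulum, included both genes that fell. *Elovl1* (ENSMUSG00000006390, chromosome 4, 118428093 to 118432953), which elongates saturated and monounsaturated chains for sphingolipids, ranged from 208 to 377 CPM in control eyes (median, 274) and from 127 to 221 CPM in Best1-Nrf2 eyes (median, 141). The groups were apart except for mouse 8, whose control eye was the lowest of its group and whose Best1-Nrf2 eye was the highest of its own. The log2 fold change was -0.94 (SE 0.17, 95% interval, -1.32 to -0.56, adjusted p = 0.00802), a 1.92-fold fall, and the gene was lower in 8 of 9 mice.

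*Elovl2* (ENSMUSG00000021364, chromosome 13, 41182381 to 41220405), which elongates polyunsaturated chains on the way to docosahexaenoic acid, had the largest change of the 36 genes. It ranged from 1.48 to 80.2 CPM in control eyes (median, 10.2) and from 0.777 to 6.31 CPM in Best1-Nrf2 eyes (median, 3.66). The log2 fold change was -2.41 (SE 0.32, 95% interval, -3.11 to -1.70, adjusted p = 8.66e-04), a 5.30-fold fall, and the gene was lower in 9 of 9 mice. Control levels varied over a wide range. They were highest in mice 1, 9 and 2, with 80.2, 72.5 and 33.5 CPM. These 3 control eyes also had the highest cone scores (6.43, 7.03 and 6.73 mean log2 CPM). Their rod scores (2.98, 3.27 and 3.21) and RPE scores (9.56, 9.39 and 9.34) were the highest of the control eyes as well. The part of each score in the *Elovl2* level was not tested.

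*Elovl4*, which makes the very long polyunsaturated chains of photoreceptor membranes, ranged from 20.9 to 181 CPM in control eyes (median, 102) and from 41.0 to 105 CPM in Best1-Nrf2 eyes (median, 66.5). The groups overlapped, and the log2 change of -0.51 did not pass (SE 0.23, adjusted p = 0.389), with 7 of 9 mice lower. Its sign turned with the rod and cone score (0.09) and with the RPE score (0.18) as a covariate. *Elovl6*, which extends the products of *Fasn*, was lower in 8 of 9 mice but did not pass either (log2 fold change, -0.33, SE 0.12, adjusted p = 0.225). *Elovl5*, which acts on polyunsaturated chains, was at -0.05. The front-end desaturases *Fads1* and *Fads2*, which add further double bonds to polyunsaturated chains, were at 0.01 and -0.18.

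**Figure D5:**
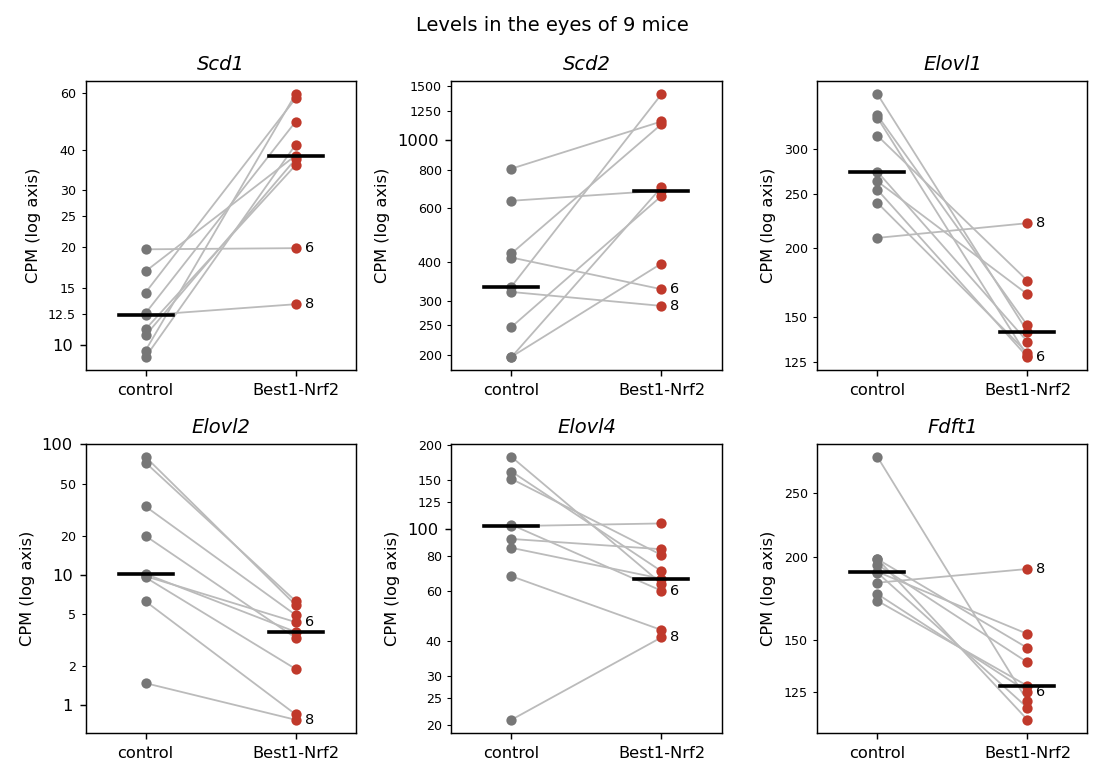
CPM on a log axis in control and Best1-Nrf2 eyes for 6 genes; thin lines join the eyes of a mouse, black bars are medians, and the Best1-Nrf2 eyes of mice 6 and 8 are numbered. The medians are 12.4 and 38.4 CPM for *Scd1*, 274 and 141 CPM for *Elovl1*, and 10.2 and 3.66 CPM for *Elovl2*.

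The calls of *Scd1*, *Elovl1* and *Elovl2* were read beside the photoreceptor markers, which moved with the groups. With the rod and cone score as a covariate, none of the 3 passed. The log2 fold changes were then 0.00 for *Scd1*, on the negative side of 0 (adjusted p = 0.996), -0.55 for *Elovl1* (adjusted p = 0.498) and -1.06 for *Elovl2* (adjusted p = 0.346), and 21 genes passed in all. Mouse 6, on which that fit mainly rests, was the mouse whose rod and cone score was not lower in the Best1-Nrf2 eye. There *Elovl1* and *Elovl2* were lower by log2 differences of -0.995 and -1.16, whereas *Scd1* and *Scd2* differed by 0.01 and -0.34. These differences are thus not a separate reading from the fit. The part of the inner retina RNA in the Best1-Nrf2 eye of mouse 6 in these differences, and in those of *Insig1* and the sterol arm, was not tested. With the RPE score as a covariate, the log2 fold changes were 1.19 for *Scd1* (adjusted p = 0.207), -0.51 for *Elovl1* (adjusted p = 0.223) and -1.63 for *Elovl2* (adjusted p = 0.0572). Both scores were lower with Best1-Nrf2 in 8 of 9 mice, and beyond these values their part in the changes was not tested. Of 10 markers of fat cells, which are rich in *Scd1*, *Lep* was at 0 in every library and *Adipoq*, *Cidec* and *Ucp1* were under 1 CPM in all. The list summed to 8.07 to 25.2 CPM in control eyes (median, 14.1) and 6.96 to 45.4 CPM in Best1-Nrf2 eyes (median, 14.2), and none of the 5 markers tested passed (adjusted p of 0.513 or more). The part of fat cells in the *Scd1* level was not tested.

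The sterol arm was compared with the fatty acid arm. The median log2 fold changes were -0.07 and -0.17, and the sterol arm was thus 0.09 higher. By mouse, the mean log2 difference of the sterol arm minus that of the fatty acid arm ranged from -0.79 in mouse 2 to 0.86 in mouse 1, with a mean of 0.04 ± 0.54 (SD, n = 9). It was above 0 in 4 mice and below 0 in 5. The medians therefore did not part beyond the spread between mice. In the main model the arms differed in their range, from -0.53 to 0.07 in the sterol arm and from -2.41 to 1.52 in the fatty acid arm. This contrast did not hold for the same genes with the rod and cone covariate. There *Hmgcs1* and *Sqle* were at -0.96 and -1.22, beside -1.06 for *Elovl2*, -0.36 for *Scd2* and -0.0046 for *Scd1*.

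Other genes of the pathway, outside the 36, were then read from the same model. Of 79 genes tested in 4 lists, 6 rose and 1 fell, beside 3.12% higher and 1.13% lower among all genes. Among genes of fatty acid supply, elongation partners and glycerolipid synthesis, 4 of 31 rose and none fell, beside the same shares of all genes (3.12% and 1.13%), with a list median of -0.12. *Acss2*, which makes acetyl-CoA from acetate, ranged from 6.55 to 28.9 CPM in control eyes (median, 16.4) and from 19.6 to 74.4 CPM in Best1-Nrf2 eyes (median, 62.2), a log2 change of 1.47 (SE 0.29, adjusted p = 0.0121, higher in 8 of 9 mice). *Slc25a1*, which exports citrate from mitochondria, had a log2 change of 0.91 (SE 0.19, adjusted p = 0.0144, higher in 8 of 9 mice). The citrate it exports is the substrate of *Acly*.

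*Me1*, the cytosolic malic enzyme that makes NADPH and a known Nrf2 target, had medians of 169 and 435 CPM (log2 fold change, 1.01, adjusted p = 0.0359). *Lpin1*, a phosphatidate phosphatase of glycerolipid synthesis, had medians of 11.7 and 28.9 CPM (log2 fold change, 1.19, SE 0.21, adjusted p = 0.00579) and was higher in 9 of 9 mice. The call of *Lpin1* was lost without the replicate block (log2 change, 1.13, adjusted p = 0.0511). That of *Me1* was lost without the block (log2 change, 0.92, adjusted p = 0.192) and on leaving out any of mice 2, 3, 4, 5, 7, 8 and 9, with the adjusted p between 0.0126 and 0.111 and the log2 change between 0.91 and 1.22 over the 9 mice left out in turn.

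Of 11 further sterol steps and cofactors, 1 rose. *Cyb5r3*, the cytochrome b5 reductase that supplies electrons to sterol and fatty acid desaturases, had medians of 152 and 304 CPM (log2 fold change, 1.03, SE 0.22, adjusted p = 0.0189, higher in 8 of 9 mice). Its adjusted p was 0.0643 at most when single mice were left out, and the call was lost without mouse 4 and without mouse 7, while the log2 change stayed between 0.90 and 1.18. None of 18 genes of SREBP processing and partner factors passed (adjusted p of 0.206 or more).

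Of 19 genes of sterol uptake, efflux and storage, 1 rose and 1 fell. *Lipa*, the lysosomal acid lipase that frees cholesterol from its esters, had medians of 159.8 and 294 CPM (log2 fold change, 0.86, SE 0.20, adjusted p = 0.0276). Its call was lost without the block (log2 change, 0.82, adjusted p = 0.129) and without any of mice 1, 3, 4, 5, 7, 8 and 9 (adjusted p of 0.0921 at most), with log2 changes from 0.78 to 1.01 over the mice left out. *Cyp27a1*, the sterol hydroxylase of mitochondria that clears cholesterol as oxysterols and acids, ranged from 9.90 to 23.4 CPM in control eyes (median, 19.1) and from 4.74 to 14.3 CPM in Best1-Nrf2 eyes (median, 8.83). It was lower in 9 of 9 mice (log2 fold change, -0.91, SE 0.17, adjusted p = 0.00726). None of these 7 genes passed with the rod and cone score or the RPE score as a covariate, but the sizes of the changes differed. With the rod and cone score, the log2 changes were 0.06 for *Acss2*, 0.09 for *Slc25a1*, 0.21 for *Lipa*, 0.42 for *Cyb5r3*, 0.81 for *Me1*, 0.90 for *Lpin1* and -1.37 for *Cyp27a1* (adjusted p from 0.163 to 0.968). With the RPE score, they were 1.09 for *Acss2*, 0.79 for *Slc25a1*, 1.11 for *Lipa*, 1.16 for *Cyb5r3*, 1.36 for *Me1*, 1.32 for *Lpin1* and -1.02 for *Cyp27a1* (adjusted p from 0.0721 to 0.246).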

How the data were processed

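RPE RNA from 9 *rd1* mice, 1 Best1-Nrf2 and 1 control eye each, was sequenced after amplification without molecular identifiers, so intervals cover the spread between these libraries and not single molecules. The authors aligned reads to mm10 with transcripts of Ensembl release 91 using STAR, counted them with featureCounts, and in parallel estimated counts with Salmon, given as version 0.8.1 in the submitters' processing notes. The deposited table holds whole numbers that were treated as estimated counts per gene, because the table does not name its counter. Symbols were found for 47224 of 47729 gene IDs. Coordinates and exon lengths are from GENCODE mouse release 21 (GRCm38).

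Analyses used R 4.3.3. Genes were kept by filterByExpr (18958), scaled by TMM and tested in edgeR 4.0.16 by its quasi-likelihood F test, with mouse as a block. P values were adjusted over all genes by the Benjamini-Hochberg method (threshold, 0.05). A prior count of 2 was used for log2 CPM. The labels give both eyes of an animal 1 number, and this was the source of the pairing; after removal of group means, the eyes of a mouse correlated with a median of -0.00095 (range, -0.37 to 0.64). List scores are mean log2 CPM, and lists were described without a test. Reads shared between genes were estimated from 31-base words of the transcripts. The methods were tested on simulated data.

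The 36 genes, the other lists and the rules were chosen with earlier results of these data known. Values are given for every gene of the 36 past the threshold, the 4 of each arm with the largest change, and *Srebf1*, *Srebf2*, *Insig1*, *Hmgcs1*, *Sqle*, *Fasn*, *Scd1*, *Acly* and *Elovl4*; other pathway genes are named where they passed, at most 5 a list. Details on *Mlxipl*, *Scap*, *Elovl6*, *Scd3* and *Scd4* were chosen after their values were seen. Alternatives were no replicate block, RLE and upper-quartile scaling, DESeq2 1.42.0, limma 3.58.1 voom with sample weights, no count filter, at least 10 counts in every library, a threshold of 0.1, a rod and cone covariate, leaving out each mouse, and leaving out mice 6 and 8. Covariates for red blood cell and RPE lists were added after seeing the data. No library was left out otherwise.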

Additional observations from a re-analysis of the deposited data

Results flagged for a closer look

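For each of the 36 genes, the 9 eyes of each group were screened for an eye whose gap to its nearest neighbour was large against the range of the group (Dixon's test, log2 CPM). Of 72 groups, 6 had such an eye, and about 1 in 20, or 3.6, would by chance. In control eyes, *Fdft1* (8.15, next value 7.64) and *Msmo1* (8.09, next value 7.63) were high in mouse 2, *Insig2* was low in mouse 3 (6.17, next value 6.39), and *Elovl4* was low in mouse 8 (4.39, next value 6.08), whose control eye also had the lowest RPE score. In Best1-Nrf2 eyes, *Ebp* was high in mouse 8 (6.51, next value 5.20) and *Fasn* was low in mouse 3 (4.06, next value 5.82), the eye with the most red blood cell transcripts. None of these 6 genes was called.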

How the results depend on the processing

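*Scd1*, *Elovl1* and *Elovl2* passed under 18 of 20 alternatives, among them each mouse left out in turn, and lost their calls with the rod and cone covariate and with the RPE covariate. With the former, *Scd1* also took the other sign (-0.0046). The number of genes of the 36 that were higher was 1; it was 2 with DESeq2, voom, the red blood cell covariate and without mice 6 and 8 (*Scd2* being the addition), 1 to 2 with single mice left out, and 0 with the rod and cone or the RPE covariate. The number lower was 2; it was 3 with DESeq2, voom, no replicate block, a threshold of 0.1 and without mice 6 and 8 (*Fdft1* being the addition), 2 to 3 with single mice left out, and 0 with the rod and cone or the RPE covariate. The sterol arm median was -0.84 with the rod and cone covariate, a fit that rests mainly on mouse 6. Over all genes, 806 passed, against 742 without the replicate block for mouse (647 shared), 1478 with DESeq2, 1426 with voom, 21 with the rod and cone covariate, 317 with the RPE covariate and 540 to 1046 with single mice left out. The causes of these shifts were not tested. Of 720 values of single genes under the alternatives, 704 kept their side of the threshold, with 98 values that were not called changing sign. Levels were low for *Mlxipl*, *Acacb* and *Elovl2* (median CPM in control eyes, 3.09, 6.62 and 10.2), and *Acacb* had the widest interval of the genes not called (half-width, 0.80).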
